A study of Mus musculus with 6 samples.

Results

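The subject here is 10 transcription factors of granulocytes, monocytes and early blood progenitors: Cebpa, Cebpb, Cebpd, Cebpe, Gfi1, Spi1, Irf8, Runx1, Myb and Gata2. They were taken by symbol from a list of names, and all 10 were found among the 23170 genes of the authors' deposited table. The RNA was that of subchondral bone in the mandibular condyle, the end of the lower jaw that carries the temporomandibular joint. In the partial discectomy group (3 libraries, titled PD) part of the joint disc was removed on 1 side, and the sham group (3 libraries) had a sham operation, also on 1 side; bone of the operated joint was taken. All mice carry the strain label wild type and the age label P6w+PO2w, whose prefixes are not spelled out. The library descriptions end in LPD for partial discectomy and Rctrl for sham, so whatever these letters stand for cannot be told apart from the operation. The descriptions also open with a number, and 1 library of each group has the number 6; whether those 2 came from the same animal is not stated, and the deposited p-values could not be recomputed for that case. Separate mice for the 3 libraries of each group are not stated, so p-values measure only the spread between these libraries, which may be technical.

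Blood cells of the granulocyte and monocyte lines are set by a small number of transcription factors that act in sequence. Runx1, Myb and Gata2 work in stem cells and early progenitors. Spi1 (PU.1) and Cebpa then open the myeloid path, Gfi1 and Cebpe carry cells towards neutrophils, and Irf8 carries them towards monocytes and dendritic cells. Cebpb and Cebpd, relatives of Cebpa, are known for raising granulocyte output under stress and for roles in inflamed stroma. Several of them also work outside these lines: Cebpa, Cebpb and Cebpd in fat cells, Runx1 in skeletal progenitors, and Gata2 in endothelial and mast cells. In bulk bone RNA more cells of a type and more RNA per cell cannot be told apart.

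The bases in front of 3 of these genes are shown because, of the genes with a sequence, these had the largest ratios. A RefSeq promoter entry (build GRCm38.p6) was found for 7 of the 10 genes, all but Cebpd, Cebpe and Spi1. The stretch printed ends at the base before the RefSeq start and leaves out untranslated exons. For Gfi1 it lies within the bounds that GENCODE M21 gives the gene. Irf8 is given over chr8:120736108-120736357 on the plus strand, Gfi1 over chr5:107725806-107725954 on the minus strand and Myb over chr10:21160985-21161234 on the minus strand. Capitals mark matches, on either strand, to 8 short motifs: TTGCNNAA for C/EBP factors, GAGGAA for PU.1, GAAANNGAA for IRF factors, TGTGGT for RUNX factors, TAACNG for MYB, AGATAA for GATA factors, AAATC for GFI1 and TTCNNNGAA for STAT factors.
Irf8: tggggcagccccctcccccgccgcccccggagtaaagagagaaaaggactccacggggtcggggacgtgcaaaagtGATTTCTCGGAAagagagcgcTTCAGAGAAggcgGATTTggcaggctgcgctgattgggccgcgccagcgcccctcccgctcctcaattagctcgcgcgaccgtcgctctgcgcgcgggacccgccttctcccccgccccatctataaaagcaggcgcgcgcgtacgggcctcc
Gfi1: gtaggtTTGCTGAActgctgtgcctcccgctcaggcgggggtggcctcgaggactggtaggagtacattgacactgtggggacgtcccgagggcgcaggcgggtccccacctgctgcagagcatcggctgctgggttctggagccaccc
Myb: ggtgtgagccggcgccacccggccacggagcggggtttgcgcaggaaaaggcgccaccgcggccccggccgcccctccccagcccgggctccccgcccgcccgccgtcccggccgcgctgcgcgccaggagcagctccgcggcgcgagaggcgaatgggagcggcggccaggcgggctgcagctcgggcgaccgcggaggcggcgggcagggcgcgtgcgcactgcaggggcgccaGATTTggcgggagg

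Gfi1 and Irf8 have 2 start entries each, and the stretch before the more upstream start is printed. Before the other start of Gfi1 the 250 bases hold 0 matches, and before that of Irf8 they hold 1, to the GFI1 letters, and none to the STAT letters. The printed stretch before Gfi1 holds 1 match to the C/EBP letters, TTGCTGAA, at -143 to -136 from its start. Of all 32851 promoter entries, 5.42% hold that motif in a window of the same 149 bases. The printed stretch before Irf8 has 2 matches to the STAT letters, TTCTCGGAA at -171 to -163 and TTCAGAGAA at -153 to -145. The STAT letters occur in 7.02% of all windows of 250 bases. The GFI1 letters, found in 32.7% of such windows, occur at 2 places in the printed stretch before Irf8, where 1 of them overlaps the STAT match, and at 1 place before Myb. The base composition differed from the average, with 81.2% G and C before Myb and 67.2% before Irf8, against 53.2% over all windows. These matches describe letters only.

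Of the 10 genes, 1 was called changed. Cebpe rose, and all the other members had ratios above 1 without passing the threshold of an adjusted p under 0.05 per the authors' deposited table. The count of 1 higher and 0 lower stands against 2.28% of all genes called higher and 0.104% called lower. The unadjusted p was under 0.05 for 7 higher members and 0 lower ones, where 10.9% of all genes were higher. Each ratio divides the partial discectomy mean by the sham mean. Ratios ran from 1.14 for Runx1 to 3.65 for Myb, with a median log2 ratio of 0.81 for the members and 0.08 for all genes, in the authors' deposited table. Values are normalized expression whose unit has no name in the table, and the lowest group mean, 1, was read as an offset added to every library and is called the floor. Deposited ratios include this floor, so they understate the change of genes near it.

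Values of single libraries were not analysed here, but the table limits them. For each gene it gives both group means, the highest of the 6 libraries and the geometric mean of the 6, and from these the possible range of each library was computed with every library at or above the floor. The highest library was certain to be a partial discectomy library for all 10 members, as it was for 44.6% of all genes. Genes for which the table allows either group are not in that share. For 6 members, namely Cebpe, Cebpa, Gfi1, Spi1, Irf8 and Gata2, every possible set of values put all 3 partial discectomy libraries above all 3 sham libraries. Among all genes this held for 10.4%. The groups were certain to overlap for Cebpd alone, against 60.4% of all genes. For Cebpb, Runx1 and Myb both outcomes were possible.

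**Figure D1:**
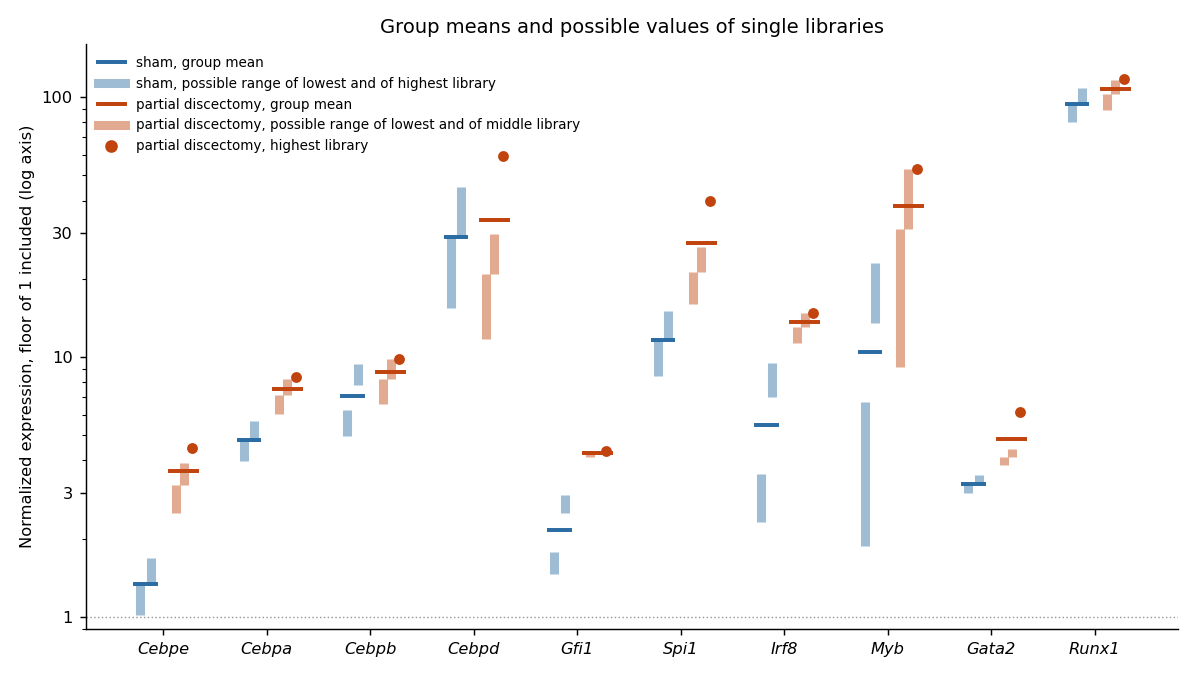
Normalized expression with the floor included, on a log axis, for each of the 10 genes. Blue is sham and orange partial discectomy, horizontal lines are group means, thick bars are the ranges that the table allows for a single library, and points are the highest library. The orange bars lie wholly above the blue ones for Cebpe, Cebpa, Gfi1, Spi1, Irf8 and Gata2, and share part of their span for Cebpb, Cebpd, Runx1 and Myb.

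Among the 4 C/EBP factors 1 was called, Cebpe, with ratios of 1.57, 1.24 and 1.16 for Cebpa, Cebpb and Cebpd. Cebpe, which is needed for the late granules of neutrophils and for eosinophils, lies on chromosome 14 from 54710360 to 54712174 (mm10), minus strand, with 2 exons. After partial discectomy the lowest library lay between 2.51 and 3.21, the middle one between 3.21 and 3.91 and the highest at 4.48. In sham the lowest lay between 1.01 and 1.34 and the highest between 1.34 and 1.69, so the groups did not overlap. The means were 3.63 and 1.34, a ratio of 2.71 (95% limits 1.92 to 3.84, adjusted p = 0.0140), as listed in the authors' deposited table. Since sham was close to the floor, the size of the change depends on it: above the floor the means were 2.63 and 0.339, a 7.76-fold difference. Without the highest library the ratio was 2.40. For every member this step can only lower the ratio, since all sham libraries are kept.

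Cebpa, the factor that commits progenitors to the myeloid path, is a gene of 1 exon on chromosome 7 (35119293 to 35121928, plus strand). Its partial discectomy libraries lay at 6.03 to 7.12, 7.12 to 8.21 and 8.37. The sham libraries lay between 3.98 and 5.68, below all of them. In the authors' deposited table its ratio was 1.57 (95% limits 1.14 to 2.16) with an unadjusted p of 0.0104 and an adjusted p of 0.169. Fat cells make Cebpa too. Of 4 measured fat cell markers 2 rose, Fabp4, a fatty acid carrier (3.41-fold), and Pparg, the regulator of fat cells (2.36-fold). Adipoq, with means of 4.91 and 1.82, had a ratio of 2.69 without a call, and its groups were certain not to overlap. Counting Adipoq, 3 of the 4 markers were higher at an unadjusted p under 0.05. The summed mean of the 4 above the floor was 17.7 after partial discectomy and 4.20 in sham, with the lipid droplet gene Plin1 near the floor in both groups at 1.11 and 1.24. Their part in the Cebpa value was not tested.

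Cebpb and Cebpd, the stress-responsive relatives, gave ratios of 1.24 (0.859 to 1.80, adjusted p = 0.590) and 1.16 (0.575 to 2.35, adjusted p = 0.959), as listed in the authors' deposited table. Cebpb lies on chromosome 2 (167688915 to 167690418) and Cebpd on chromosome 16 (15887286 to 15891031), each with 1 exon. For Cebpb the partial discectomy libraries lay somewhere from 6.59 to 9.86 and the sham libraries from 4.95 to 9.38, and whether they overlap is not fixed. For Cebpd a single partial discectomy library at 59.2 held 59.5% of its group's total above the floor. The other 2 lay between 11.8 and 29.8, within or below the sham range of 15.4 to 45. Without that library, and with all sham libraries kept, the ratio of Cebpd was 0.719, below 1 instead of above. The limits for Cebpb and Cebpd include ratios near those of Cebpa, and differences among the 3 genes were not tested.

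Reads of Cebpb and Cebpd may be shared with genes on the opposite strand, since the sources used here do not say whether counting used strand. In GENCODE M21, Tmem189 covers 60.4% of Cebpb and Spidr 48.3% of Cebpd. Their ratios were 1.37 and 1.04 in the authors' deposited table, and neither was called. An antisense gene, Gm45091, covers 11.9% of Cebpa and stood near the floor, at 1.36 and 1.24. No other gene overlaps Cebpe, Spi1 or Gata2, and A430072P03Rik, which covers 9.38% of Gfi1 on the opposite strand, was not analysed here.

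Gfi1, Spi1 and Irf8, which steer progenitors to neutrophils or monocytes, had ratios of 1.97, 2.37 and 2.48, and none passed the threshold. Gfi1, a repressor needed for neutrophils, lies on chromosome 5 (107716657 to 107726036, minus strand). Its 3 partial discectomy libraries were close together, at 4.12 to 4.23, 4.23 to 4.33 and 4.33. In sham the lowest lay between 1.47 and 1.77 and the highest between 2.51 and 2.94, so sham was the more variable group and lay below. The authors' deposited table lists Gfi1 with a ratio of 1.97 (95% limits 1.35 to 2.88) and an adjusted p of 0.0683. Above the floor the Gfi1 means were 3.26 and 1.16, a 2.81-fold difference.

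Spi1, which encodes PU.1, lies on chromosome 2 (91082390 to 91115756, plus strand, 5 exons). Its partial discectomy libraries lay at 16.1 to 21.3, 21.3 to 26.5 and 39.9. The sham libraries lay between 8.43 and 15.1, with no overlap. The ratio was 2.37 (1.51 to 3.72, adjusted p = 0.0752), as listed in the authors' deposited table. The highest library held 49.0% of the group's total above the floor, and without it the ratio was 1.84.

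Irf8, the factor of monocytes and dendritic cells, lies on chromosome 8 (120736358 to 120756694, plus strand, 9 exons). After partial discectomy its libraries lay at 11.3 to 13, 13 to 14.8 and 14.8. In sham the lowest lay between 2.31 and 3.54 and the highest between 7.04 and 9.46, a wide spread that stayed below the other group. The means were 13.6 and 5.48, a ratio of 2.48 (1.38 to 4.47, adjusted p = 0.0872), as listed in the authors' deposited table. The whole of Irf8 lies within Gm20388, a gene model on the same strand, which had a ratio of 1.02 in the authors' deposited table. Reads could be split between the 2 models. Beside Spi1 and Irf8, the summed mean above the floor was 149 after partial discectomy and 77.6 in sham for 6 monocyte markers, and 235 and 153 for 6 macrophage markers. Csf1r, which osteoclasts make too, held 157 and 86.5 of the macrophage sums. Mrc1 had a ratio of 1.57, and C1qa, C1qb, Adgre1 and Cd163 had ratios of 0.983, 1.06, 1.14 and 0.779. The part of the monocyte and macrophage markers in the Spi1 and Irf8 values was not tested.

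**Figure D2:**
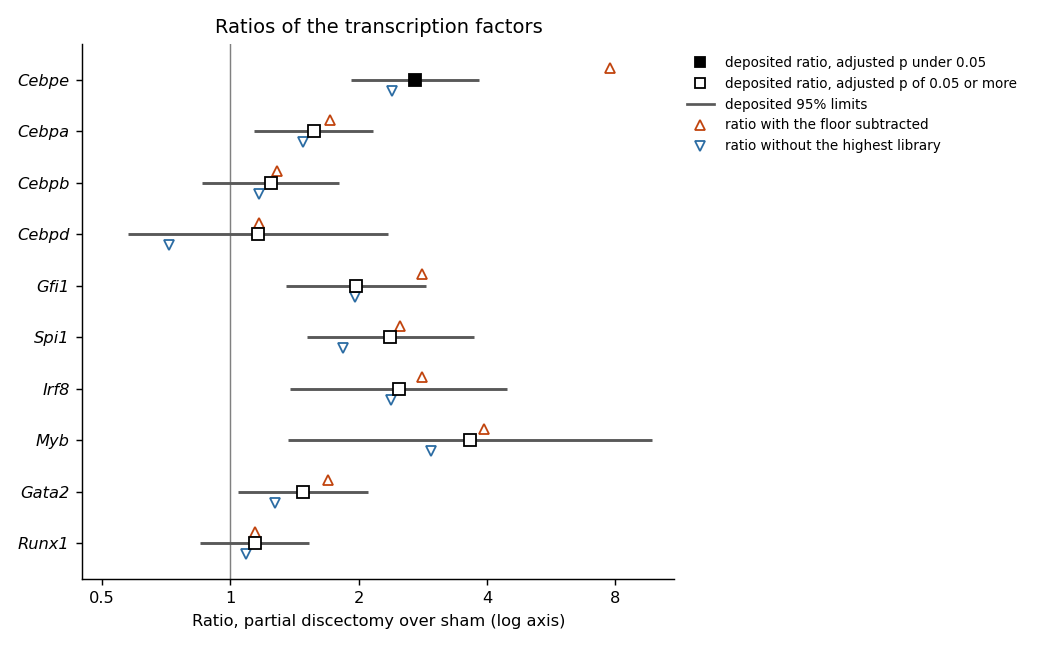
Ratio of partial discectomy over sham on a log axis for the 10 genes. Squares with lines are the deposited ratios and 95% limits (filled for Cebpe, the called gene), upward triangles the ratios with the floor subtracted and downward triangles the ratios without the highest library. The limits lie above 1 for 7 genes, as they do for 2566 of all 23170 genes. Subtracting the floor moves Cebpe to 7.76, and Cebpd falls to 0.719 without its highest library.

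Of the stem and progenitor factors, Myb had the largest ratio of the whole set and also the widest limits. Myb, which keeps progenitors cycling and is also made by precursor B and T cells and early red cells, lies on chromosome 10 (21124935 to 21160984, minus strand). Its highest partial discectomy library was at 52.8, the middle one between 31.0 and 52.8 and the lowest between 9.18 and 31.0. In sham the lowest lay between 1.87 and 6.71 and the highest between 13.5 and 23.0. Both groups were spread out, and whether they overlap is not fixed by the table. The means were 38.3 and 10.5, a ratio of 3.65 (95% limits 1.37 to 9.76, adjusted p = 0.114), as listed in the authors' deposited table. Among all 23170 genes that ratio was at percentile 99.4, while its p ranked 1068. Without its highest library the ratio was 2.96. An antisense gene, Gm26577, covers 25.7% of Myb and had a ratio of 1.69 (adjusted p = 0.274), as listed in the authors' deposited table.

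Markers of other cells that make Myb were read in the same comparison. All 6 erythroid markers rose, and their summed mean above the floor was 217 after partial discectomy and 11.4 in sham. Of 5 B cell markers none was called, 4 were higher at an unadjusted p under 0.05, and the sums were 124 and 75.8. Ebf1, with a ratio of 1.25, held 70.2 and 56.1 of these sums, and the ratios of the others ran from 2.16 to 2.95. Of 5 T and NK cell markers 3 rose, with sums of 9.08 and 0.968. Their part in the Myb value was not tested.

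Gata2, a factor of stem cells and of the mast cell line, lies on chromosome 6 (88193891 to 88207032, plus strand, 6 exons). Its partial discectomy libraries lay at 3.86 to 4.14, 4.14 to 4.43 and 6.17. The sham libraries lay within the narrow range of 3.00 to 3.52, below all of them. The ratio was 1.48 (1.04 to 2.10) with an unadjusted p of 0.0385 and an adjusted p of 0.314 per the authors' deposited table. Without the highest library the ratio was 1.27. Of 6 measured mast cell and basophil markers 1 rose, Hdc, which makes histamine (6.09-fold), and 5 had ratios above 1. Counting Hdc, 4 were higher at an unadjusted p under 0.05, the others being Ms4a2, Kit and Cpa3 (ratios of 1.97, 1.81 and 1.95). Kit is also counted in the list of surface genes of stem and progenitor cells. The protease Cpa3 was at 2.69 and 1.38 (adjusted p = 0.109), as listed in the authors' deposited table, and the connective tissue mast cell protease Mcpt4 stood near the floor at 1.03 and 1.10. Endothelial markers, another source of Gata2, had 6 of 6 ratios above 1 and no call, with 1 higher at an unadjusted p under 0.05 and summed means above the floor of 194 and 131. The part of either in the Gata2 value was not tested.

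Runx1, needed for the emergence of blood stem cells and also active in skeletal progenitors, had the smallest ratio of the set. It spans 92601466 to 92826149 on chromosome 16, minus strand, with 5 to 8 exons by transcript. The partial discectomy libraries lay at 89.1 to 103, 103 to 116 and 117, and the sham libraries between 80.3 and 109. Whether the groups overlap is not fixed. The antisense gene Gm26626 covers 3.25% of Runx1 and had a ratio of 1.00 in the authors' deposited table. The ratio was 1.14 (0.850 to 1.53, adjusted p = 0.696), as listed in the authors' deposited table. These limits allow a rise of up to 1.53-fold. Runx2 and Runx3, its relatives, had ratios of 0.877 and 0.856, and their shared partner Cbfb 0.909, without a call, in the authors' deposited table.

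Stem and progenitor factors outside the set split in direction. Of 13 such genes found in the table, 4 rose and 1 fell. Lmo2, Lyl1 and Tal1, which form a complex with GATA factors, rose 3.35-fold (95% limits 2.16 to 5.19), 2.78-fold and 4.78-fold in the authors' deposited table, and Gfi1b, the erythroid relative of Gfi1, rose 2.62-fold. Hlf, a marker of stem cells that other tissues make as well, fell to 0.334 of sham (0.199 to 0.558). Ikzf1 (Ikaros) had a ratio of 4.05 with an adjusted p of 0.0528 per the authors' deposited table. Meis1, Mecom and Prdm16, also linked to stem cells, had ratios of 0.859, 1.05 and 0.829 without a call. Tal1, Lmo2 and Gfi1b are factors of red cells and megakaryocytes too, and the erythroid markers rose as given above. Gfi1b, Ikzf1, Meis1, Mecom and Prdm16 were named after their values were seen.

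In the list of surface genes of stem and progenitor cells 9 of 12 ratios were above 1, as were 14535 of 23170 over all genes. Of the 12 genes 5 rose and 0 fell, among them Slamf1, Flt3 (a receptor of early progenitors), Itga2b and Angpt1, a ligand of the receptor Tek. In the authors' deposited table Flt3 was at 3.29 and 1.43, a ratio of 2.30 (1.76 to 3.01, adjusted p = 0.0104). Slamf1, a surface receptor of stem cells, was at 2.15 and 1.09, so that its sham mean was barely above the floor. Kit, the receptor for stem cell factor and a gene regulated by Gata2, had a ratio of 1.81 (1.24 to 2.65, adjusted p = 0.109), as listed in the authors' deposited table. Cd34, which endothelial cells make too, had one of 0.881. The other ratios below 1 were those of Ly6a (0.709) and Procr (0.713), without a call.

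Genes listed with the granules of neutrophils, some of them controlled by factors of the set, were mostly called higher. Of 9 genes in the early granule list 6 rose and 0 fell, with a median log2 ratio of 2.03. Of 11 genes in the late granule list 9 rose and 0 fell, with a median of 3.60. Not every listed gene encodes a granule protein: S100a8 and S100a9 in the late list and Serpinb1a and Ms4a3 in the early list do not. Earlier results of these data already showed neutrophil genes, so these counts are no independent support. Fcnb and Ms4a3, made at the precursor stage, rose 5.38-fold and 3.26-fold in the authors' deposited table. Mpo and Elane, granule enzymes under the control of Cebpa, Spi1 and Myb, had ratios of 4.80 and 4.21 with an adjusted p of 0.111 for each per the authors' deposited table. Ltf, Camp and Ngp, late granule genes that depend on Cebpe, were among the 9 that rose.

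Receptors of myeloid growth factors were in part called. Of 8 measured receptor and ligand genes 2 rose and 0 fell, and 6 were higher at an unadjusted p under 0.05. Csf3r, the receptor for G-CSF and a target of Cebpa and Spi1, rose 8.37-fold (5.01 to 14, adjusted p = 0.00759), as listed in the authors' deposited table, and Csf2ra, the GM-CSF receptor chain, rose 2.10-fold. Csf1r, the M-CSF receptor of monocytes, macrophages and osteoclasts, had a ratio of 1.80 with limits of 1.04 to 3.14, and was not called per the authors' deposited table. The ligands Csf1 and Il34 had ratios of 1.21 and 0.864 without a call in the authors' deposited table.

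Partner and later factors of the monocyte and macrophage line were not called. Of 14 genes in that list the deposited adjusted p called 0, with 3 higher and 1 lower at an unadjusted p under 0.05 and a median log2 ratio of 0.04. Irf5 had a ratio of 1.85 and Irf4 one of 2.27, with adjusted p of 0.113 and 0.242 per the authors' deposited table. Zeb2 and Tcf4, with the highest means of the list, had ratios of 1.11 and 0.760, and the macrophage factor Maf 0.889. For monocyte markers 2 of 6 rose, Ccr2 (4.98-fold) and Ly6c2 (4.31-fold), and 5 of 6 were higher at an unadjusted p under 0.05. For macrophage markers 0 of 6 rose, with 2 higher at an unadjusted p under 0.05. Of 11 relatives of Spi1 and Runx1 and 7 partners and regulators of C/EBP factors, the deposited adjusted p called 0, with 5 and 1 higher at an unadjusted p under 0.05. Among them were Fli1 and Erg (ratios of 1.57 and 1.54), ETS factors that endothelial and blood cells share, and Cebpg and Atf4, which pair with C/EBP proteins (1.12 and 1.46), in the authors' deposited table.

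**Figure D3:**
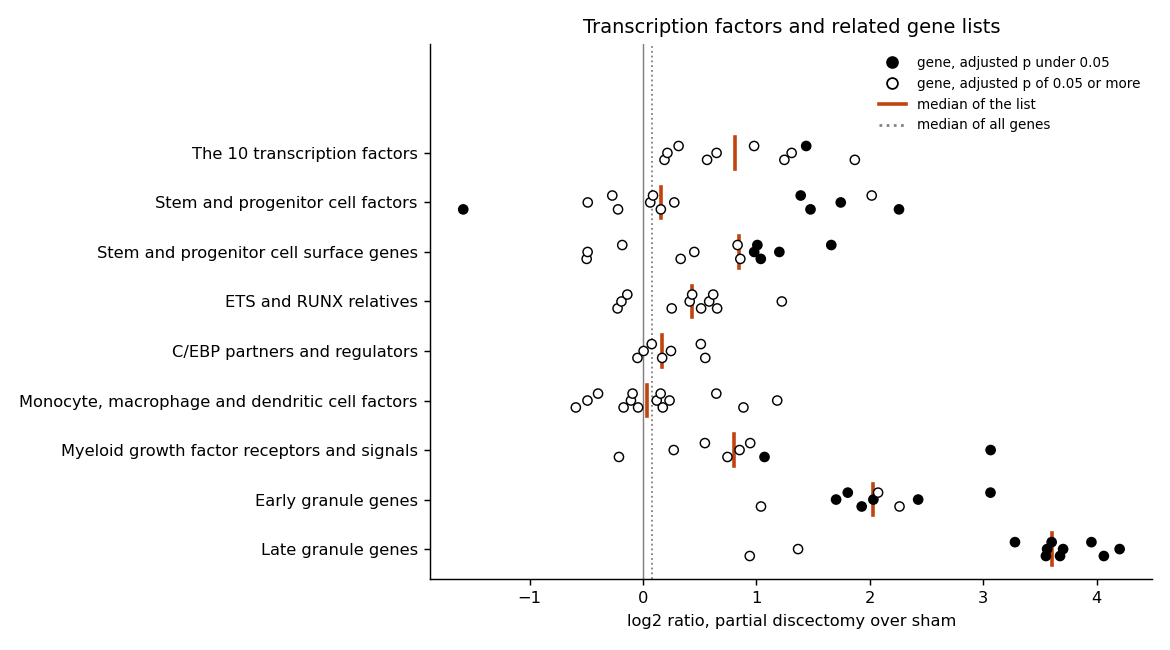
The log2 ratio of partial discectomy over sham for each gene of the set and of 8 related lists. Points are genes, filled where the adjusted p is under 0.05, vertical bars are list medians, and the dotted line is the median of all genes at 0.08. The early and late granule lists lie farthest to the right, with medians of 2.03 and 3.60 against 0.81 for the 10 transcription factors.

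Markers of bone and of eosinophils were read beside these values. Bone genes, the defining markers of the labelled tissue, were present, with Col1a1 at 34180 after partial discectomy and 27783 in sham and Ibsp at 1992 and 1240 in the authors' deposited table. None of 6 osteoblast and 5 chondrocyte markers was called or had an unadjusted p under 0.05. Skeletal muscle was present, with Acta1 at 49.4 and 72.4, and of its 5 markers 0 were called and 0 had an unadjusted p under 0.05. Eosinophils also need Cebpe. Their granule genes Epx and Prg2 had ratios of 6.55 and 5.04 with adjusted p of 0.0717 and 0.104 per the authors' deposited table, and the summed mean of 5 eosinophil markers above the floor was 26.2 against 4.43. For 7 neutrophil markers, all of which rose and 4 of which are also in the lists above, the sums were 674 and 36.2. The part of either in the rise of Cebpe was not tested.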

How the data were processed

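RNA of 6 libraries, 3 of partial discectomy and 3 of sham, was sequenced; STAR 2.6.1d and mm10 are named per the submitters' processing notes. No counter, filter, normalization or model is named in the sources used here. The authors deposited 1 comparison table of 23170 genes with group means as a normalized signal, the ratio and its log2, a signed fold change with 95% limits (a score), and p-values, per the file headers. The deposited adjusted p equalled a Benjamini-Hochberg adjustment over all genes. A second file held gene positions and no measurement. Depth per library is unknown, so no counting interval is given.

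No test was fitted here, since the table holds group means; calls rest on the deposited adjusted p under 0.05. The planned count-based or log-scale fit therefore was not run. Limits below 1 were turned into ratios. The floor of 1 was read from the lowest group mean. Ranges of single libraries were solved on a grid of 400 steps with Python 3.11.15 and numpy 2.4.6, tested on simulated data, and a solution existed for all 23170 genes. Stop positions in the table lie 1 base past the GENCODE M21 ends, which are printed. The 10 members and all lists (8 of pathway genes, 13 of markers) were chosen with earlier results of these data known. All members were named, and from each list up to 4 called genes by smallest p, or, with fewer than 2 called, the 2 with the highest mean; other genes were named after their values were seen. Genes of the lists that are missing from the table were not analysed here, and some listed genes are not reported here. Alternatives were other sets of genes to adjust over, other call rules, other scales and leaving out the highest library.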

Additional observations from a re-analysis of the deposited data

How the results depend on the processing

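The count of members called, 1 of 10, was the same after readjusting over 15911 genes with a mean of at least 1 above the floor or over 15397 protein-coding genes. Over 10286 genes with a mean of at least 5 it was 0, because Cebpe, at a mean of 2.49 with the floor included, is not among them. It was 4 at an adjusted p under 0.1, 7 by the deposited 95% limits and 7 at an unadjusted p under 0.05. Over all 23170 genes, limits wholly above 1 were found for 2566, and 10.9% were higher at an unadjusted p under 0.05. The share at an adjusted p under 0.1 was not counted, but Irf8, whose p ranked 872 among all genes, passed and Myb, ranked 1068, did not. The median log2 ratio of the members ran from 0.65 with another 1 added to 1.05 with the floor subtracted, and was 0.68 relative to the summed group means. Of 50 recomputed member values 49 were above 0 and 49 lay within the deposited limits. The exceptions were Cebpd at -0.48 without its highest library and Cebpe at 2.96 with the floor subtracted. Most of these signs were fixed in advance. Adding or subtracting 1 in both groups cannot change the sign. The shifts relative to all genes, 0.08 and 0.13, were smaller than the smallest member value, 0.19 for Runx1. Only leaving out the highest library, a partial discectomy library for each member, could change a sign. That step could only lower a ratio, since no sham library was left out. No paired analysis was possible because the table gives no values per library, and leaving out each library in turn could not be run for the same reason; only the highest library could be left out. No test can be had without it, so the calls were not recomputed for that case. Depth is unknown, so what it limits could not be judged.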
